A study of Homo sapiens with 6 samples.

Results

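A set of 10 noncoding genes that host small nucleolar RNAs (snoRNAs) or carry a 5′ terminal oligopyrimidine (5′ TOP) start were followed: GAS5, SNHG1, SNHG5, SNHG8, SNHG12, SNHG15, SNHG16, SNHG17, ZFAS1 and EPB41L4A-AS1. They were taken by symbol from a table of 15024 genes, and 9 of the 10 had a row there. EPB41L4A-AS1 was not analysed here. All 9 passed the filter on low values and were among 14343 genes tested. RNA came from MDA-MB-231, an established triple-negative breast cancer line, carrying a non-targeting guide (sgNT). Forskolin, which raises cyclic AMP and so activates protein kinase A, was present in the medium of both groups (10 µM, 14 days), and no untreated cells were analysed here. The cells were sorted as CD44-positive with high CD104 (CD104high, described in the design text as a hybrid epithelial-mesenchymal state) or as CD44-positive with absent or low CD104 (CD104low, described as mesenchymal). CD104 is integrin beta 4, the product of ITGB4. There were 3 libraries of each, numbered by the labels as biological replicates, and all came from 1 cell line.

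SnoRNAs guide chemical modification of ribosomal RNA and other RNAs, those of the box C/D class (SNORD) 2′-O-methylation and those of the box H/ACA class (SNORA) pseudouridylation. In vertebrates most are cut out of the introns of host genes, and in the noncoding hosts the spliced exons are left as a transcript without a long reading frame. Many hosts are transcribed from promoters whose RNA begins with a C and a run of pyrimidines, the 5′ TOP tract. Messages of ribosomal proteins share that tract and are translated under the control of mTORC1. Because the spliced noncoding hosts engage ribosomes on short reading frames, several of them, GAS5 among the best known, are destroyed by nonsense-mediated decay when translation is active. The level of the spliced host measured here is therefore not the level of the snoRNAs it carries.

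The transcript starts of the 9 genes are shown because the 5′ TOP tract is the feature that names the group. Each sequence is the first 30 bases of a GENCODE release 29 transcript on GRCh38. Capitals mark a C at the first base followed by at least 4 C or T bases. Where several transcripts of a gene begin this way, the start shared by the largest number of them was taken. SNHG15 and SNHG17 have none, and the starts shown for them are shared by 1 of 10 and 2 of 8 transcripts, so that for SNHG15 the choice is arbitrary.
GAS5, chr1:173867960-173867989, minus strand: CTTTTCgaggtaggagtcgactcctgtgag
SNHG16, chr17:76557769-76557798, plus strand: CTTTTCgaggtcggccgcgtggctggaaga
SNHG5, chr6:85678704-85678733, minus strand: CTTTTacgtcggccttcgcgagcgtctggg
SNHG8, chr4:118278758-118278787, plus strand: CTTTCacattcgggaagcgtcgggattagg
ZFAS1, chr20:49278642-49278671, plus strand: CTTTCgcgtctgcggtgcccggagtgtggt
SNHG12, chr1:28581844-28581873, minus strand: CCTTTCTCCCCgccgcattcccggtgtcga
SNHG1, chr11:62855450-62855479, minus strand: CTCCTgtctgcaggatttacgcgcacgttg
SNHG15, chr7:44986541-44986570, minus strand: ccgccatcctgggccccacgtgttgcctga
SNHG17, chr20:38435304-38435333, minus strand: gcctcagtccttcgccgtccctcgccgtcc

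Of the 9 genes, 7 (77.8%) had at least 1 annotated transcript with such a start, against 17.0% of 14301 tested genes with annotated transcripts. The 2 without one were SNHG15 and SNHG17. GAS5 and SNHG16 shared their first 11 bases, and no other pair of the 9 shared more than the first 5. SNHG12 had the longest tract, at 11 bases. For SNHG1 the tract belonged to 1 of its 25 transcripts, and for GAS5 to 6 of 29. Genes with more annotated transcripts have more chances of a match, so 1 start per gene was also read from RefSeq windows on GRCh38.p14. There, 3 of 8 matched genes began with the tract (SNHG5, SNHG12 and ZFAS1), against 5.17% of 11103 tested genes with a window. SNHG15 was not matched. The tract was also found in any transcript of 20 of 25 ribosomal protein genes that host snoRNAs and in 1 of 12 noncoding RNAs chosen because they host none.

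The same windows hold the letters TATAA in some of the genes, which are shown because those exact letters part the group. Each line gives 40 bases before and 20 bases after the RefSeq start, on the strand of the gene. Capitals mark TATAA between 40 and 15 bases before the start, and the pyrimidine tract where the start itself carries it.
SNHG5, chr6:85678714-85678773, minus strand: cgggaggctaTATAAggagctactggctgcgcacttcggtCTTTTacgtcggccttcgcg
SNHG8, chr4:118278722-118278781, plus strand: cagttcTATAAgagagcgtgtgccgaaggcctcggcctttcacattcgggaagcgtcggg
SNHG12, chr1:28581854-28581913, minus strand: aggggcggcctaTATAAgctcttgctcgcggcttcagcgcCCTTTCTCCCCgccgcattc
ZFAS1, chr20:49278602-49278661, plus strand: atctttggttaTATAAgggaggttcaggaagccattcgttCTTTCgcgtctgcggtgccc
SNHG1, chr11:62855866-62855925, minus strand: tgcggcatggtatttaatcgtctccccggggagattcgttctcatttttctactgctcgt
SNHG16, chr17:76557724-76557783, plus strand: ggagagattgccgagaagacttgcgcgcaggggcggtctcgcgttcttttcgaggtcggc
SNHG17, chr20:38435309-38435368, minus strand: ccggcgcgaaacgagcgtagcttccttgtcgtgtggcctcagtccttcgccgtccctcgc

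TATAA stood on the sense strand of SNHG5, SNHG8, SNHG12 and ZFAS1, 4 of 8 genes with a window, against 3.04% of tested genes. GAS5, SNHG1, SNHG16 and SNHG17 lacked these letters in this interval. The SNHG1 window has the similar letters tatttaa there. The RefSeq starts of GAS5 and SNHG1 lie upstream of their tracts, so their windows do not cover the starts shown above. Motifs of regulators were searched over the whole window, 250 bases before to 50 after the start. TGACGTCA, the full site of the cyclic AMP response element and its own reverse complement, was in 0 of 8 windows (3.15% of tested genes). Its shorter form TGACG on either strand, which the full site contains, was in 2 of 8, SNHG8 and SNHG12 (33.5% of tested genes). CACGTG, the E-box bound by MYC and related factors and also its own reverse complement, was in 0 of 8 (9.82%). SNHG15 had no window and is outside these counts, but the transcript start shown for it above does contain CACGTG.

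The 9 genes lie on 7 chromosomes (spans from GENCODE 29, GRCh38). SNHG1 (ENSG00000255717.7) spans chr11:62851988-62855914, SNHG17 (ENSG00000196756.13) chr20:38420588-38435353, SNHG15 (ENSG00000232956.9) chr7:44983023-44986961 and SNHG16 (ENSG00000163597.15) chr17:76557766-76565348. ZFAS1 (ENSG00000177410.13) spans chr20:49278178-49295738 and SNHG12 (ENSG00000197989.14) chr1:28578538-28583132. GAS5 (ENSG00000234741.8) spans chr1:173863900-173868882, SNHG8 (ENSG00000269893.8) chr4:118278709-118279823 and SNHG5 (ENSG00000203875.13) chr6:85660950-85678748. RefSeq places 40 snoRNAs within the 10 genes. GAS5 holds 11 of them, 10 named SNORD, and SNHG1 holds 9, of which 8 are SNORD. SNHG17 holds 5, including SNORA71A to SNORA71D, and SNHG12 holds 4, SNORD99 and the H/ACA genes SNORA16A, SNORA44 and SNORA61. SNHG16 holds SNORD1A to SNORD1C and ZFAS1 holds SNORD12, SNORD12B and SNORD12C. SNHG5 holds the pair SNORD50A and SNORD50B, and the others hold 1 each: SNORA24 in SNHG8, SNORA9 in SNHG15 and SNORA13 in EPB41L4A-AS1.

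The libraries held between 52088604 and 56958065 reads assigned to genes. ITGB4 was 5.83-fold higher in CD104high (log2 fold change 2.54, SE 0.15, adjusted p = 4.1e-05), with every CD104high library above every CD104low library. VIM, CD44, AXL and FN1, which this line expresses strongly, had values of at least 13475 in every library, while ESR1, PGR and the blood and endothelial markers PTPRC, CD3E, CDH5 and LYZ were not analysed here. The endothelial marker PECAM1 reached at most 9.85. ERBB2, also expected to be low in a triple-negative line, was tested, but its level is not reported here. That expectation was therefore not checked. The log2 difference of ERBB2 was 0.20. It passed with the replicate number as a block in limma (adjusted p = 0.0264) and with DESeq2 (0.032), but not in limma without the block. Both libraries numbered 3 stand apart from the others in the deviations from their group means, and CD104low replicate 1 has the highest levels of several lists described below. In sorted bulk samples, fewer cells expressing a gene and less of its RNA per cell cannot be told apart.

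All 9 genes had a lower mean in CD104high, and 4 of them fell past the test: SNHG17, SNHG1, SNHG15 and SNHG16. Values are reads divided by a size factor of the library (normalised read counts), a log2 fold change is the CD104high minus the CD104low mean of log2(value + 1), and the test is limma with Benjamini-Hochberg adjustment over all tested genes at a threshold of 0.05. The 4 called genes of 9 (44.4%) stand against 11.3% of all tested genes called lower and 12.1% called higher, and 0 of the 9 were called higher. The groups did not overlap, with CD104high lower, for 6 of the 9, against 21.3% of tested genes (19.9% with CD104high higher). The median log2 fold change was −0.26, against 0.0089 over all tested genes, of which 48.8% had a value below 0. The genes had been grouped with earlier results of these data known.

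**Figure D1:**
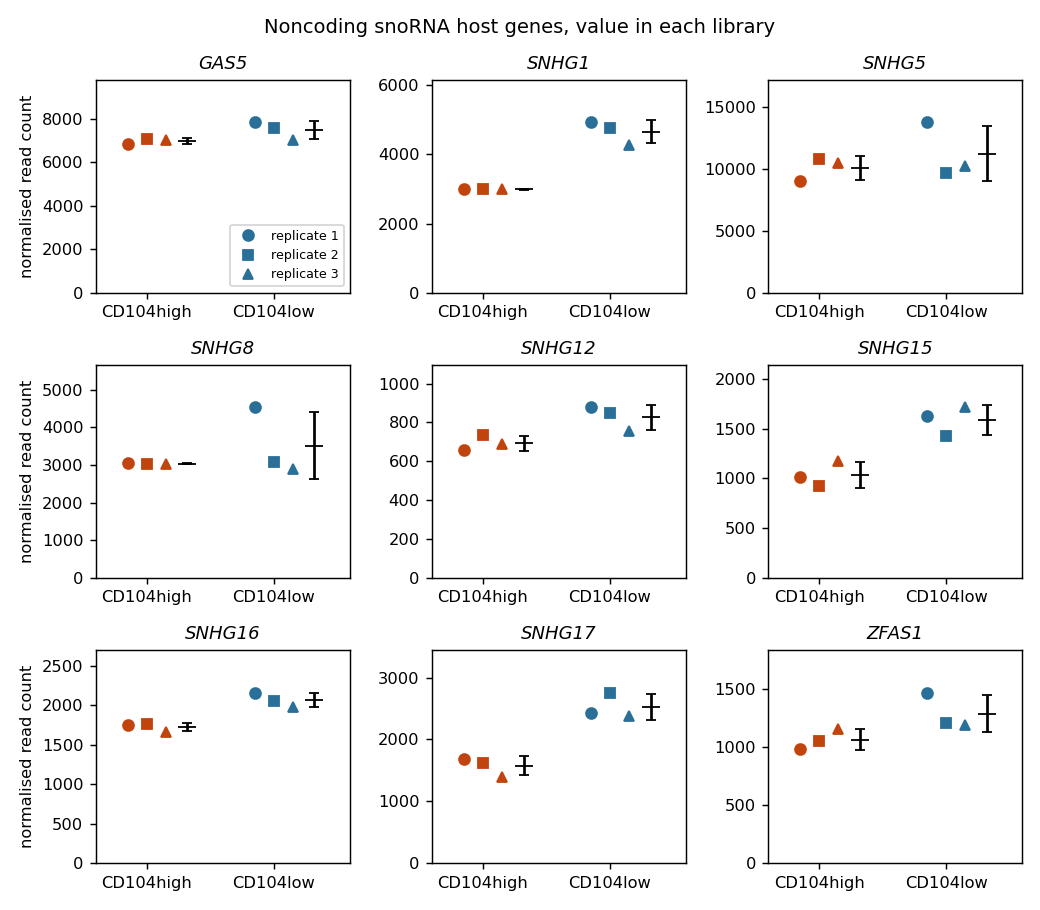
Normalised read count (y axis, from 0) of each of the 9 genes in the 3 CD104high and 3 CD104low libraries, with symbols for replicate numbers and, at the right of each group, the mean with its SD. For SNHG1, SNHG12, SNHG15, SNHG16, SNHG17 and ZFAS1 every CD104high library lies below every CD104low library, and SNHG5 and SNHG8 have 1 high point, CD104low replicate 1.

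SNHG17, the host of the SNORA71 family, had the largest change. Its normalised read counts were 1689, 1624 and 1396 in CD104high replicates 1 to 3 and 2428, 2757 and 2377 in CD104low. The highest CD104high library lay well under the lowest CD104low library. SNHG17 was 1.61-fold lower in CD104high, at 1569.9 ± 154 (SD, n = 3) against 2521 ± 206. The log2 fold change was −0.68 (SE 0.10, 95% interval −0.90 to −0.47, adjusted p = 0.00135).

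SNHG1, also known as UHG and the carrier of a run of box C/D snoRNAs, changed almost as much. It had 2991, 2999 and 2986 in CD104high, a spread of 0.207% of the mean, and 4931, 4756 and 4280 in CD104low. The 3 CD104high libraries were nearly equal, and each CD104low library was far above them. The means were 2992 ± 6.2 and 4656 ± 337 (SD, n = 3), 1.55-fold lower in CD104high. Its log2 fold change was −0.64 (SE 0.07, 95% interval −0.80 to −0.47, adjusted p = 0.000497), the smallest p of the 9.

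SNHG15, the host of SNORA9, had 1016, 919 and 1174 in CD104high and 1631, 1424 and 1715 in CD104low. The groups were apart, and in both of them replicate 3 was highest and replicate 2 lowest. SNHG15 was 1.54-fold lower, at 1036 ± 129 against 1589.9 ± 149.8 (SD, n = 3), with a log2 fold change of −0.62 (SE 0.11, 95% interval −0.87 to −0.37, adjusted p = 0.0043). These 3 genes kept their direction and their call in all 18 alternative analyses.

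SNHG16, which carries SNORD1A to SNORD1C, had 1751, 1759 and 1661 in CD104high and 2162, 2055 and 1984 in CD104low. No library of one group reached the other group. The change was smaller than in the 3 genes above, 1.2-fold lower (log2 fold change −0.26, SE 0.08, 95% interval −0.43 to −0.09, adjusted p = 0.0318). The call ended when any 1 library other than CD104low replicate 3 was left out (adjusted p = 0.0685 to 0.105), and its log2 fold change was then −0.28 to −0.23. It also ended without the mean-variance trend (adjusted p = 0.0559), where 3 of the 9 genes were lower against 6.53% of tested genes (8.62% higher). The same held without both libraries numbered 3 (adjusted p = 0.0937) and with effects of transcript length and GC content taken out (0.0645, 3 of 9 lower against 12.4%).

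ZFAS1 and SNHG12 had changes of the same size as SNHG16 with a wider spread, and neither passed the test. ZFAS1, which carries the SNORD12 family, had 984, 1054 and 1159 in CD104high and 1471, 1207 and 1193 in CD104low. The groups did not overlap, but CD104high replicate 3 lay close to CD104low replicate 3. Its log2 fold change was −0.27 (SE 0.11, 95% interval −0.52 to −0.03, adjusted p = 0.1). Without both libraries numbered 3 the log2 fold change was −0.39, which passed (adjusted p = 0.0349, with 10.2% of tested genes lower in that fit), and without CD104low replicate 1 it was −0.17 (adjusted p = 0.256).

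SNHG12 had the lowest level of the 9, with 656, 734 and 688 in CD104high and 877, 848 and 755 in CD104low. Every CD104high library was below every CD104low library. The log2 fold change was −0.25 (SE 0.10, 95% interval −0.48 to −0.02, adjusted p = 0.105), and it passed in none of the 18 alternatives, where adjusted p ran from 0.066 to 0.264. For both genes the 95% interval of the single fit lay below 0 while the adjusted p missed the threshold.

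GAS5 was named for its rise in growth-arrested cells and holds the most snoRNAs of the group. It had 6852, 7086 and 7051 in CD104high and 7849, 7568 and 7049 in CD104low. CD104low replicate 3 fell within the CD104high range, and the other 2 CD104low libraries lay above it. The log2 fold change was −0.10 (SE 0.07, adjusted p = 0.315), and its 95% interval, −0.24 to 0.05, did not reach the point values of SNHG1, SNHG15 or SNHG17. GAS5 thus differed least of the 9 in its mean, 6996 ± 126 against 7489 ± 406 (SD, n = 3), with no test made of one gene against another.

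SNHG8 and SNHG5 each had 1 library that stood above the rest. SNHG8, the host of SNORA24, had 3043, 3015 and 3037 in CD104high, nearly equal, and 4533, 3093 and 2904 in CD104low. CD104low replicate 1 was 1.51-fold above the mean of the other 2 CD104low libraries, and those 2 lay on either side of the CD104high values. The log2 fold change was −0.18 (SE 0.14, 95% interval −0.50 to 0.13, adjusted p = 0.384), and 0.017 without CD104low replicate 1.

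SNHG5, which carries SNORD50A and SNORD50B, had 8983, 10827 and 10466 in CD104high and 13762, 9655 and 10219 in CD104low. CD104low replicate 1 was again the highest, 1.38-fold above the mean of the other 2, and the remaining 5 libraries of both groups were mixed. The log2 fold change was −0.14 (SE 0.13, 95% interval −0.42 to 0.14, adjusted p = 0.467), and 0.018 without CD104low replicate 1. The direction of the mean for SNHG5 and SNHG8 therefore rested on that library.

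**Figure D2:**
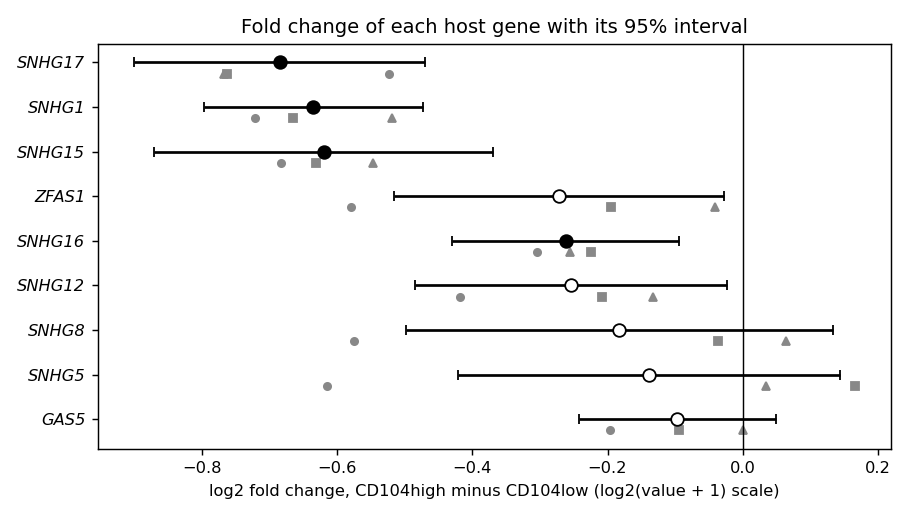
Log2 fold change of each gene, CD104high minus CD104low (x axis), with its 95% interval from limma as a bar. Filled points passed the test (SNHG17, SNHG1, SNHG15, SNHG16) and open points did not. Small grey symbols give the difference within each numbered pair (circle 1, square 2, triangle 3). For 6 of 9 genes these lie below 0 in all pairs, as they must where the groups do not overlap.

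The deviations of same-numbered libraries ran together across all genes, though weakly for number 1 (r = 0.166), so differences within numbered pairs were also read. All 3 pairs were lower in CD104high for SNHG1, SNHG12, SNHG15, SNHG16, SNHG17 and ZFAS1. These are the genes whose groups did not overlap, so every pair had to be lower and this is no separate result. The share of all tested genes with all pairs lower was not computed. In SNHG17 the pair differences were −0.52, −0.76 and −0.77 for numbers 1 to 3, and in SNHG1 −0.72, −0.67 and −0.52. In ZFAS1 they were −0.58, −0.20 and −0.042, and so were uneven. SNHG5 had −0.62, 0.17 and 0.034 and SNHG8 −0.57, −0.037 and 0.064, so that pair 1 carried both means. GAS5 had −0.20, −0.095 and 0.0005. With the replicate number as a block the same number of genes passed, 4 of 9 (SNHG1, SNHG15, SNHG16 and SNHG17), against 15.4% of tested genes called lower by that fit and 17.4% called higher.

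CD104low replicate 1 was the highest CD104low library for 7 of the 9 genes, all but SNHG15 and SNHG17. How often this holds over all tested genes was not computed, so it cannot be read as a trait of these genes. That library also had the largest sum of values over all genes, 55262600 against 54068600 and 53646900 in CD104low replicates 2 and 3. The mean of the centred log2 values of the 9 genes was 0.31 in CD104low replicate 1, 0.13 in replicate 2 and 0.08 in replicate 3. In the CD104high libraries it was −0.20, −0.16 and −0.16. The profile over the 6 libraries correlated with the mean of the other 8 genes at r = 0.96 for SNHG16, 0.95 for SNHG1 and 0.92 for SNHG12. It did so least for SNHG5 (0.58) and SNHG8 (0.64). These correlations describe 6 libraries that fall into the 2 groups and carry no test. The summed values of the 25 snoRNA-hosting ribosomal protein genes were also highest in CD104low replicate 1, at 1341040 against 1110910 and 1102130 in the other CD104low libraries and 990468 to 1007730 in CD104high. Whether one has a part in the other was not tested.

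**Figure D3:**
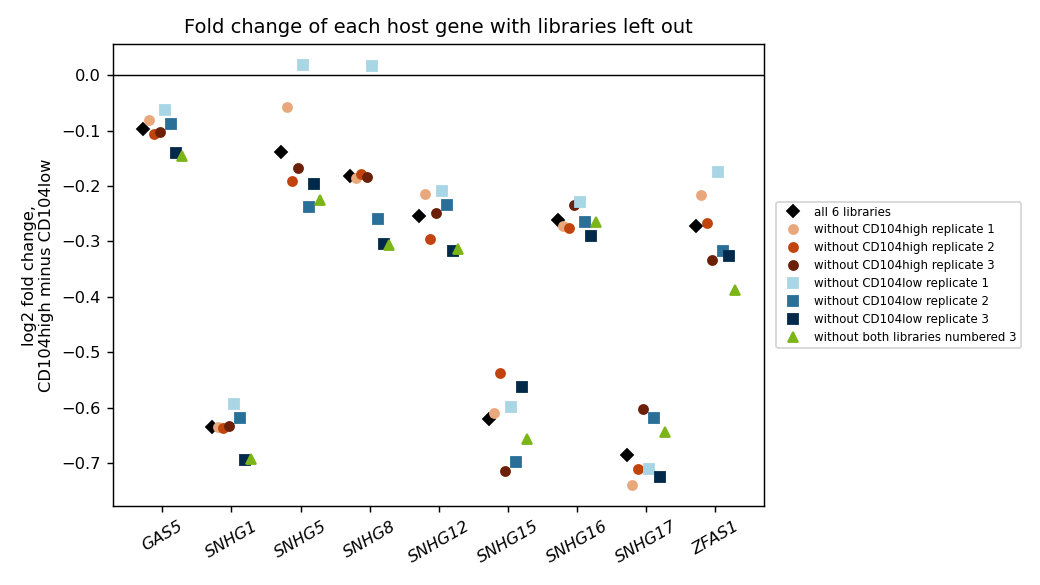
Log2 fold change of each gene, CD104high minus CD104low (y axis), with all 6 libraries (black) and with 1 library or both libraries numbered 3 left out. SNHG1, SNHG15 and SNHG17 stay between −0.74 and −0.54 in these fits, and SNHG5 and SNHG8 move to 0.018 and 0.017 without CD104low replicate 1.

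Levels differed widely among the 9 genes. Per kilobase of the median annotated transcript length, SNHG5 was highest in CD104low at 16684, followed by GAS5 at 10885, SNHG8 at 7468 and SNHG1 at 6224. SNHG17 followed at 3067, ZFAS1 at 1942, SNHG15 at 1888, SNHG16 at 1460 and SNHG12 at 758. In this order the libraries of SNHG8 and SNHG1 overlapped, as did those of ZFAS1 and SNHG15, and the other neighbours did not. With the length of all annotated exons joined, GAS5 and SNHG8 changed places and the order was otherwise equal. The 3 most abundant genes on the per-length scale were thus the 3 whose groups overlapped, and the largest fold changes were in genes of the middle of this order.

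The genes with TATAA before their RefSeq start had log2 fold changes of −0.14 (SNHG5), −0.18 (SNHG8), −0.25 (SNHG12) and −0.27 (ZFAS1), and none of them passed the test. Those with a window and without TATAA had −0.68 (SNHG17), −0.64 (SNHG1), −0.26 (SNHG16) and −0.10 (GAS5), of which 3 passed. This split was seen after the values were known, covers 8 genes and was not tested. It rests on the exact letters, which SNHG1 only resembles, and for GAS5 and SNHG1 on windows away from their tracts. Neither SNHG15 nor SNHG17, with 2 of the 3 largest changes, had an annotated transcript with a pyrimidine start. GAS5 and SNHG16, which share their first 11 bases, had −0.10 and −0.26, and their 95% intervals overlapped.

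Of the 40 hosted snoRNAs, 4 had rows of their own, and all had few reads. SNORA71B, within SNHG17, had 21.7, 18.9 and 19.6 in CD104high and 20.4, 24.6 and 38.1 in CD104low, a log2 difference of −0.40 (SE 0.35, adjusted p = 0.442). SNORD12C, within ZFAS1, gave a log2 difference of −0.61 (SE 0.57, adjusted p = 0.471), with 4.94 to 25.8 in CD104high and 12.6 to 25.6 in CD104low. SNORD99, within SNHG12, and SNORA13, within EPB41L4A-AS1, were at or under 21.7 and 10.3 in all libraries and were not tested. The groups overlapped for all 4. The 95% intervals of the 2 tested snoRNAs, −1.18 to 0.38 for SNORA71B and −1.87 to 0.65 for SNORD12C, held both 0 and the log2 fold changes of their hosts.

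Of 22 tested neighbours or overlapping genes of the 10 loci, apart from snoRNAs, 5 were lower, 3 higher and 14 did not pass, against 11.3% of all tested genes lower and 12.1% higher. SLC3A2, an amino acid transporter subunit whose annotated span begins 188 bases from SNHG1 on the other strand, gave a log2 difference of 0.048 (SE 0.12, adjusted p = 0.815), while SNHG1 had −0.64. WDR74, on the other side of SNHG1, fell by 0.49 (SE 0.09, adjusted p = 0.00526). CCM2 and PURB, the tested genes nearest to SNHG15, had log2 differences of 0.16 (SE 0.16) and 0.089 (SE 0.14). ST6GALNAC2, a sialyltransferase gene 31 bases from SNHG16 on the other strand, rose 2.42-fold from a low level (97.6 against 39.6, adjusted p = 0.0109), opposite to its neighbour. That call ended without CD104high replicate 1 (adjusted p = 0.0612). PRSS12, which lies 215 bases from SNHG8 on the other strand, had −0.058 (SE 0.16).

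Genes on opposite strands overlap 3 of the 9 hosts analysed, and also EPB41L4A-AS1, which shares 1659 exonic bases with EPB41L4A. The strand setting of the counting is not given, so reads of shared exonic bases cannot be told apart. ZFAS1 shares 249 exonic bases with ZNFX1, an antiviral RNA helicase gene. ZNFX1 gave a log2 difference of 0.23 (SE 0.08, adjusted p = 0.0528, and 0.0436 with the replicate block), and so leaned opposite to ZFAS1. SNHG12 shares 8 exonic bases with TRNAU1AP, which had −0.10 (SE 0.13). GAS5 overlaps ZBTB37 without shared exonic bases, and ZBTB37 had 0.23 (SE 0.12, adjusted p = 0.191). SNHG1, SNHG15, SNHG16 and SNHG17 overlapped no other gene of the table apart from the snoRNA SNORA71B.

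**Figure D4:**
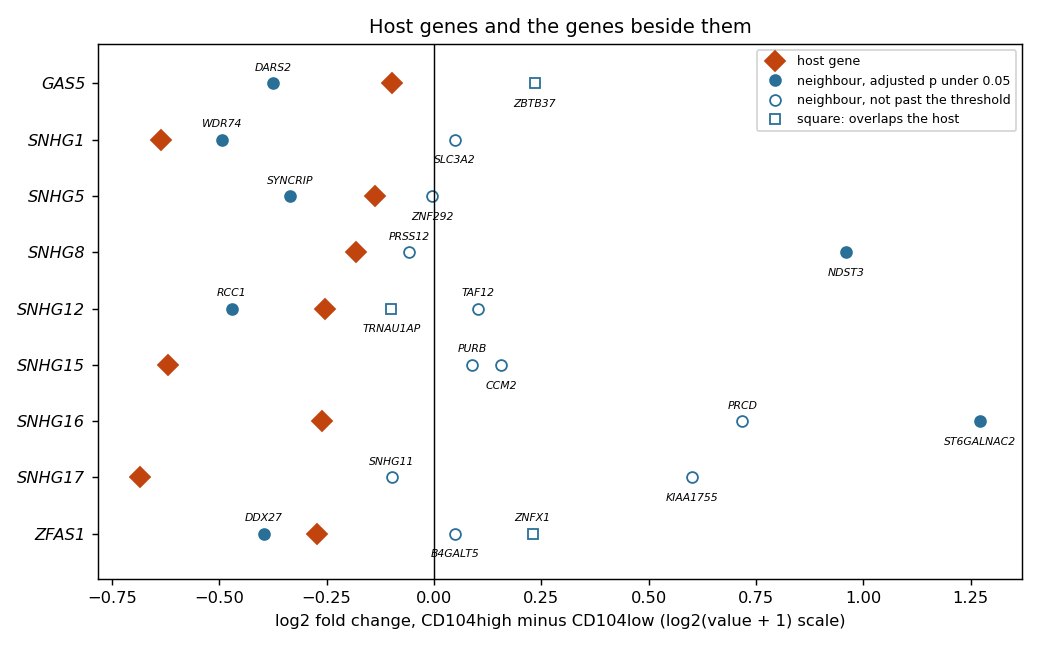
Log2 fold change, CD104high minus CD104low (x axis), of each of the 9 host genes (diamonds) and of the tested genes nearest to it (circles) or overlapping it (squares), filled where adjusted p was under 0.05. SNHG1, SNHG15 and SNHG17 lie to the left of their neighbours, and ST6GALNAC2 and NDST3 lie farthest to the right.

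Other noncoding snoRNA hosts behaved unevenly as well. Of 20 further hosts listed, 15 were tested, 5 fell (33.3%, against 11.3% of all tested genes), 0 rose and 10 did not pass, with a median of −0.12. DANCR had 1702, 1874 and 1563 in CD104high and 2890, 2791 and 2438 in CD104low, 1.58-fold lower (adjusted p = 0.00153). SNHG3 was 1.46-fold lower (adjusted p = 0.00134) and SNHG7 1.43-fold lower (adjusted p = 0.00907, and 0.0526 without the mean-variance trend), and SNHG9 and SNHG21 were the others that fell. SNHG29 had a log2 difference of 0.013 (SE 0.10) and SNHG6 one of 0.016 (SE 0.13). The count was 3 without CD104high replicate 1 or without CD104low replicate 2, and 4 without any other 1 library. The median was −0.05 without CD104low replicate 1.

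**Figure D5:**
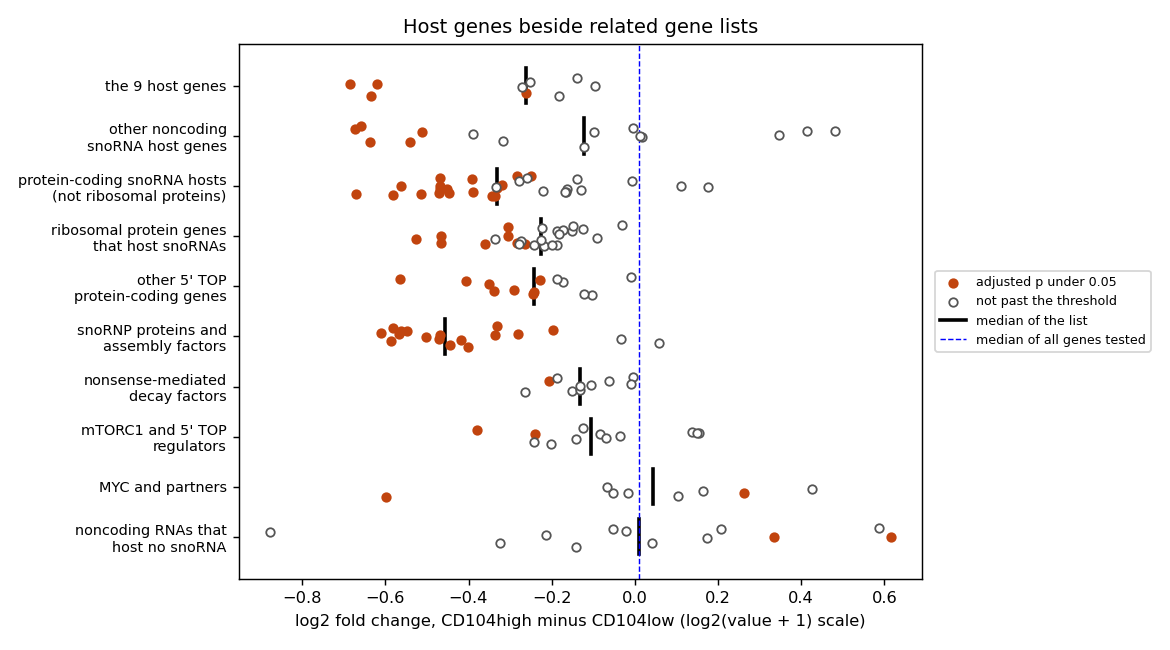
Log2 fold change, CD104high minus CD104low (x axis), of every tested gene in the 9 host genes and 9 related lists (rows), filled where adjusted p was under 0.05, with each list's median as a bar and the median of all tested genes as a dashed line. The snoRNP proteins have the lowest median (−0.46), and the noncoding RNAs that host no snoRNA centre on 0.01.

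Of 30 protein-coding snoRNA hosts other than ribosomal proteins, 18 fell (60.0%, against 11.3% of all tested genes), 0 rose and 12 did not pass (median −0.33). TPT1 (log2 difference 0.18) and CHD8 (0.11) were above 0. Those that fell were led by WDR43 (1.59-fold lower), DKC1 (1.5-fold) and NOP56 (1.48-fold), all 3 of them ribosome biogenesis factors. Without CD104low replicate 1, 1 of the 30 rose. Of 25 ribosomal protein genes that host snoRNAs, 8 fell (32.0%, against the same 11.3%) and 0 rose (median −0.23). They were led by RPS2 and RPSA, both 1.38-fold lower, and RPL17, and reads shared with pseudogenes make these values uncertain. That count was 3 without CD104high replicate 1 and 4 without CD104high replicate 2 or 3, and the median was −0.13 without CD104low replicate 1. Of 13 other 5′ TOP coding genes, 8 fell (61.5%, against 11.3%) and 0 rose (median −0.24), NPM1 by 0.57, HNRNPA1 by 0.35 and EIF3F by 0.24. The EIF3F call ended without the mean-variance trend, without any 1 CD104high library or without both libraries numbered 3 (adjusted p = 0.0548 to 0.0856), and that of RPL17 without CD104high replicate 1 (0.0579). The count of other 5′ TOP genes was 2 without CD104high replicate 1 or 2, 3 without CD104high replicate 3, and 5 or 4 without CD104low replicate 1 or 2.

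The proteins that bind and mature snoRNAs had the largest share of calls. Of 18 snoRNP proteins and assembly factors, 16 fell (88.9%, against 11.3% of all tested genes) and 0 rose (median −0.46), 3 of them also counted among the coding hosts. FBL, the methyltransferase of box C/D particles, was 1.48-fold lower (adjusted p = 0.00037), and DKC1, the pseudouridine synthase of box H/ACA particles, 1.5-fold lower (adjusted p = 0.00043). NOLC1, a nucleolar phosphoprotein that binds these particles, was 1.46-fold lower (adjusted p = 0.000708). The 2 members that did not pass were the assembly factors ZNHIT3 (log2 difference −0.034) and ZNHIT6 (0.057).

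MYC, a transcription factor that drives many ribosome biogenesis genes, was 1.51-fold lower (5284 ± 74.3 against 8011 ± 491, SD, n = 3, adjusted p = 0.00046). Of its 7 listed partners only MXD3 passed, at 1.2-fold higher, against 12.1% of all tested genes called higher. That rise ended without any 1 of 5 libraries, CD104high replicates 1, 2 and 3 and CD104low replicates 1 and 2 (adjusted p = 0.0576 to 0.109), and MXD4 was a second with the replicate block (adjusted p = 0.00138). Of 10 nonsense-mediated decay factors, 1 fell, a share near the 11.3% of all tested genes called lower: UPF1, the central helicase, by 0.21 (adjusted p = 0.0486), a call that ended when any 1 of the 6 libraries was left out (adjusted p = 0.055 to 0.164). The count of the list was then 0, except without CD104low replicate 1, where it was 1. With the replicate block, which called 15.4% of all tested genes lower, 3 of the 10 fell, UPF3B and SMG5 being added (adjusted p = 0.0241 and 0.0366). Of 12 mTORC1 and 5′ TOP regulators, 2 fell, or 4 with the replicate block, against the same 11.3% and 15.4%: EIF4EBP1, an inhibitor of cap-dependent translation, by 0.38, and LARP1, which binds the 5′ TOP tract, by 0.24 (adjusted p = 0.0152 and 0.0239). The count of 2 became 0 without CD104high replicate 2 and 1 without CD104high replicate 1, CD104high replicate 3 or CD104low replicate 2, and 0 without the mean-variance trend.

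Noncoding RNAs that host no snoRNA lay on both sides of 0. Of 12 tested, 2 rose and 0 fell (median 0.01), the rise being a share near the 12.1% of all tested genes called higher. The 2 were NEAT1, the scaffold of paraspeckles, 1.53-fold (adjusted p = 0.0202) and OIP5-AS1 1.26-fold (adjusted p = 0.0169). The number that rose was 0 without CD104high replicate 2 or without the mean-variance trend, 1 without CD104high replicate 1 and 4 without CD104low replicate 3. MIR17HG had −0.88 (SE 0.30, adjusted p = 0.0612), and 1 gene of the list fell with the replicate block, MIR17HG (adjusted p = 0.0495), or without CD104high replicate 1. The difference between these RNAs and the 9 hosts was not tested.

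The genes whose levels over the 6 libraries were most like the mean profile of the 9 hosts were sought among 7046 genes of at least median level. All genes of the lists above were left out of this search, so they were not compared. They were CCNB1 (a mitotic cyclin), NUP85 (a nuclear pore protein), USP1 (a deubiquitinase), SNRPB (a core spliceosomal protein) and ALYREF (an mRNA export factor), with Pearson r of 0.999 to 0.997. All 5 were lower in CD104high, by 0.23 to 0.48 on the log2 scale, and all were highest in CD104low replicate 1. The direction and the highest library follow from the choice, since the profile used for it has both, and are not separate results. The call of NUP85 ended in 7 alternatives, among them the omission of any 1 library but CD104low replicate 3 (adjusted p = 0.0578 to 0.0956), and that of USP1 ended without the mean-variance trend or without CD104high replicate 1 or 2 (0.0505 to 0.0683). With 6 libraries in 2 groups and so many candidates, high values of r are to be had by many genes.

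In the authors' deposited table, made with another model, the same 4 of the 9 genes had an adjusted p under 0.05: SNHG1 (4.23e-12), SNHG17 (3.12e-06), SNHG15 (6.46e-06) and SNHG16 (0.0168). There 14.8% of genes with an adjusted p were lower at that threshold. The log2 fold changes of the authors' deposited table were −0.64, −0.68, −0.62 and −0.26 for these 4. On recovered reads, edgeR and DESeq2 also called 4 of the 9 lower, against 11.6% and 13.2% of tested genes.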

How the data were processed

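Total RNA of 6 sorted samples was analysed. The submitters' processing notes name DESeq2 1.30.1, featureCounts 1.5.0, STAR 2.4.0, FastQC and the build GRCh38.p13 (hg38). Their roles, the strand setting and any filters: not given in the sources used here. The authors deposited per-library values of the unit signal, gene read counts divided by a size factor (1 read is worth 0.970 to 1.03 in the values), beside a log2 fold change with its standard error, a test statistic (score), p-values and adjusted p-values. Genes reaching 10 in 3 or more libraries were kept (14343 of 15024). All 6 samples entered an unpaired fit of log2(value + 1) in limma 3.58.1 (under R 4.3.3) that allowed a trend of variance with mean. The planned count test was an alternative only, on whole reads recovered from the values, since the size of 1 read in CD104high replicate 2, close to 1, is less certain; 100% of values were within 0.1 of a whole read. edgeR 4.0.16 and DESeq2 1.42.0 were used on them. The scripts were tested on simulated data. The limma test called 48% of genes with a true log2 fold change of −0.5 or 0.5, 78% at −1 and 74% at 1. False calls made up 8.15% of its calls. A gene that did not pass may therefore still differ.

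Members and lists were chosen with earlier results of these data known. Named were the members, up to 3 genes of smallest p per list, neighbouring genes, MYC and the 5 genes of most similar profile; some genes that this rule takes are not reported here, and those given beyond it were chosen after their values were seen. Of the identifiers, 14994 matched GENCODE 29 without version, 4244 with it. Deviations from group means of same-numbered libraries correlated at 0.166, 0.317 and 0.477 across genes. Different numbers gave 0.129 (CD104high replicate 2 with CD104low replicate 1), 0.0931 (CD104high replicate 1 with CD104low replicate 2) and otherwise −0.373 to −0.222. The numbers were taken to pair the libraries, on the evidence of the data rather than the labels. That evidence mostly sets number 3 apart and hardly parts number 1 from number 2. The labels do not say whether replicates were separate cultures, so p-values reflect only the spread among these libraries, which may be technical.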

Additional observations from a re-analysis of the deposited data

How the results depend on the processing

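Alternatives were no filter, pseudocounts of 0.1 and 5, limma without its trend, the replicate block, each library left out, both libraries numbered 3 left out, TMM and total-read scaling, edgeR, DESeq2, removal of effects of transcript length and GC content, and, chosen after seeing the data, that removal with the replicate block. Between 3 and 4 of the 9 host genes were lower in each of them and 0 higher. At an adjusted p of 0.01, 3 were lower. Over all tested genes, 1730 were higher and 1625 lower. These counts were 826 and 610 at an adjusted p of 0.01, and 936 were lower without the trend. Leaving out each library in turn gave 1017 to 1766 higher and 799 to 1547 lower genes.

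Leaving out each library in turn, SNHG5 ran from −0.24 to 0.018 and SNHG8 from −0.30 to 0.017. Among neighbours near 0, SLC3A2 ran from −0.033 to 0.20, PURB from −0.025 to 0.25, TRNAU1AP from −0.22 to 0.028, SNHG11 from −0.18 to 0.0051, PRSS12 from −0.20 to 0.075 and ZNF292 from −0.054 to 0.043. With the effects of length and GC removed, with or without the block, PRSS12 turned to 0.0073 and ZNF292 to 0.087. ZNF292 also turned to 0.0019 without both libraries numbered 3 and to 0.015 with total-read scaling.

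Without the trend the lower counts were 4 of the ribosomal protein hosts, 2 of the other 5′ TOP genes, 0 decay factors and 0 mTORC1 regulators, and 0 MYC partners and 0 RNAs that host no snoRNA were higher. With the replicate block they were 3 decay factors, 4 mTORC1 regulators and 1 RNA that hosts no snoRNA lower, and 2 MYC partners higher. The block moved no other list count by more than 1.5 times and no call of the 9 genes. Without both libraries numbered 3, 5 other 5′ TOP genes, 0 decay factors and 1 mTORC1 regulator were lower. The decay count was also 0 with no filter, total-read scaling or edgeR, and 3 with DESeq2, which called 2 MYC partners higher. With the length and GC trend removed, 5 ribosomal protein hosts, 5 other 5′ TOP genes, 3 decay factors and 5 mTORC1 regulators were lower and 0 MYC partners higher. With the block added these were 5 other 5′ TOP genes, 3 decay factors and 5 mTORC1 regulators, and 4 RNAs that host no snoRNA were higher.

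Leaving out each library gave 3 to 4 other noncoding hosts, 3 to 10 ribosomal protein hosts, 2 to 7 other 5′ TOP genes, 0 to 1 decay factors and 0 to 2 mTORC1 regulators lower. It gave 0 to 1 protein-coding hosts and 0 to 1 MYC partners higher, and 0 to 4 RNAs that host no snoRNA higher and 0 to 1 lower. Where a fit has fewer samples or tests fewer genes, that construction changed; for the other alternatives the cause was not tested. Of the 40 snoRNAs only 2 had values high enough to be tested, and their intervals were wide.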
